A study of Homo sapiens with 23 samples.

Results

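The 10 genes described here encode the subunits of NF-κB and the proteins that restrain it: NFKB1, NFKB2, REL, RELA, RELB, the inhibitors NFKBIA, NFKBIB and NFKBIE, the nuclear inhibitor-like protein NFKBIZ, and TNFAIP3 (A20). They were chosen by gene symbol, and each was read from the probe sets that the array annotation assigns to that gene alone. The 10 genes have 22 such probe sets among 19775 genes measured, and each gene is represented by its brightest one, as judged by mean log2 signal over the arrays. RNA was profiled in MCF-10A-ER-Src cells, a line of untransformed human breast epithelial cells with a v-Src kinase joined to an estrogen receptor domain. Tamoxifen (TAM) switches the fused kinase on, and transformation follows. All 23 arrays come from this line. The cells were reverse transfected with a 25 nM pool of siRNAs against STAT3 (siSTAT3) or a 25 nM non-targeting pool (siSCM, which the sample labels call siNEG), grown for 48 h, and then given 1 µM TAM or the vehicle ethanol (EtOH) for 4 or 24 h. This gives 8 groups with 3 arrays each, apart from siSTAT3 TAM 24 h, which has 2 arrays (a further replicate was not analysed here). The siSCM and siSTAT3 cells therefore both passed through transfection, and no untransfected cells are among the groups.

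NF-κB is a family of dimeric transcription factors. In resting cells the dimers are held in the cytoplasm by IκB proteins, and receptors for cytokines such as IL1 and TNF activate the IKK kinases, which mark IκB for destruction and let the dimers enter the nucleus. Several of the genes that NF-κB switches on encode its own subunits and inhibitors, so the pathway builds its own feedback, and in breast epithelial cells it is known for driving inflammatory genes such as IL6. The arrays report RNA only. Protein levels, IκB degradation and nuclear entry were not analysed here.

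STAT3 RNA was first read as a check of the knockdown. The mean signal of its main probe set ranged from 4022 to 6119 units over the siSCM groups and from 331 to 425 units over the siSTAT3 groups, and no siSTAT3 array overlapped a siSCM array. The log2 change ranged from -3.94 to -3.39 over the 4 matched comparisons. Array medians lay between 73.5 and 85.3 units, with 44.6% to 46.9% of probe sets above 100 units, and within a group arrays lay 0.211 to 0.290 log2 units apart on average. The 3′ to 5′ signal ratio of ACTB, a measure of RNA integrity, ran from 1.21 to 1.44. Both siSTAT3 TAM 24 h arrays lay at the low end with 1.21, as did replicate 1 of siSTAT3 TAM 4 h. The same ratio of GAPDH was 0.933 and 0.913 on the siSTAT3 TAM 24 h arrays, within the range of the other arrays. Among the epithelial genes KRT5, KRT14, ITGB4, CDH1 and EPCAM, the lowest signal on any array was 1290.1 units, that of ITGB4. Of 8 immune cell markers measured, only CD14 had a mean above 100 units in all groups (361 to 899 units over the arrays), and PTPRC, which marks all leukocytes, stayed at or below 56.1 units. The summed signal of 6 fibroblast markers was carried by DCN and COL1A1, while COL1A2 and PDGFRB stayed at or below 66.6 units. That sum was 2877 to 3504 units in siSCM EtOH 4 h, 2088 to 2362 in siSTAT3 EtOH 4 h, 5722 to 5946 in siSCM EtOH 24 h and 3138 to 3158 in siSTAT3 EtOH 24 h. With TAM it was 3362 to 3450 units in siSCM and 2355 to 2556 in siSTAT3 cells at 4 h, and 6832 to 7863 in siSCM and 2931 to 2952 in siSTAT3 cells at 24 h. The sum moved with time and with the siRNA. Over time with EtOH, DCN and COL1A1 both rose in siSCM and in siSTAT3 cells. With the siRNA they went in opposite directions: with EtOH, siSTAT3 changed DCN by -0.80 and -1.21 log2 and COL1A1 by 0.53 and 0.60 at 4 and 24 h. Other markers moved as well. CDH1, which encodes E-cadherin, averaged 6861 ± 660.3 units in siSCM EtOH and 3082 ± 389 in siSCM TAM at 24 h (SD, n = 3), against 9291 ± 144 (n = 3) and 11389 ± 848 (n = 2) in siSTAT3 cells, an interaction of 1.45 ± 0.13 (SE). EPCAM changed by -0.63 ± 0.07 with TAM at 24 h in siSCM cells, with an interaction of 0.43 ± 0.11, and KRT14 by -0.54 and -0.63 with siSTAT3 in EtOH at 4 and 24 h. The endothelial marker PECAM1, at 145 to 464 units over the arrays, changed by -1.15 ± 0.16 with TAM at 24 h in siSCM cells, with an interaction of 1.19 ± 0.24, and TEK read 6.72 to 48.0 units with EtOH and 119 to 210.2 units with TAM there. The part of these markers in the changes of the 10 genes was not tested. Each array measured the RNA of a whole culture, so that fewer cells with a transcript and less of it per cell cannot be told apart.

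Among the 10 genes, TNFAIP3 moved most and NFKB1 was the gene that STAT3 depletion lowered most often. With TAM, TNFAIP3 rose at both times in both kinds of cells. In siSTAT3 cells its response at 24 h was larger than in siSCM cells. NFKB1 rose with TAM at 4 h in both, and it was lower in siSTAT3 cells in 3 of the 4 matched comparisons. NFKBIZ was higher in siSTAT3 cells at 4 h under both treatments. A gene is said to rise or fall where limma, fitted to all 23 arrays, gave a Benjamini-Hochberg adjusted p under 0.05 over all 54675 probe sets, and a log2 change is followed by its standard error (SE).

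For TAM against EtOH at 4 h in siSCM cells, 3 of the 10 genes rose and none fell, where 3.26% of all genes passed in either direction. In siSTAT3 cells at 4 h 2 rose and none fell, against 0.819% of all genes. At 24 h 4 rose and none fell in siSCM cells (15.4% of all genes), and 2 rose and none fell in siSTAT3 cells (2.75% of all genes). The median log2 change of the 10 genes was 0.37, 0.48, 0.32 and 0.29 in these 4 comparisons, while that of all genes was -0.06, -0.02, -0.04 and -0.01. TAM and EtOH arrays did not overlap for 5, 8, 7 and 8 of the 10 genes, in the same order. The share of all genes without overlap was 19.9%, 16.2%, 33.9% and 33.4%, the last with 2 arrays on the TAM side. With only the arrays of a comparison in the fit, none of the 10 genes passed at 4 h in siSCM cells (0.238% of all genes) and 2 passed at 24 h (5.59%). In siSTAT3 cells that fit called no gene at all at either time.

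The interaction subtracts the TAM change of siSCM cells from that of siSTAT3 cells, and it tests directly whether STAT3 depletion altered the response. At 4 h none of the 10 genes passed (0.521% of all genes did), and 2 had an unadjusted p under 0.05 in limma, NFKB2 and TNFAIP3. At 24 h 1 of 10 passed, TNFAIP3, where 5.91% of all genes passed. For siSTAT3 against siSCM, 3 of 10 genes passed with EtOH at 4 h (4.28% of all genes), 3 with TAM at 4 h (9.29%), none with EtOH at 24 h (2.86%) and 3 with TAM at 24 h (16.5%). In the EtOH comparison at 24 h, NFKB1 and TNFAIP3 had an unadjusted limma p under 0.05. siSTAT3 and siSCM arrays did not overlap for 3, 4, 3 and 5 of the 10 genes in these 4 comparisons, against 23.3%, 25.6%, 22.8% and 43.3% of all genes. The study's methods set stricter limits, a p of 1e-04, taken here as unadjusted, together with a log2 change beyond 0.5 in size. By these limits 2 genes passed for TAM at 4 h in siSCM cells (1.51% of all genes), 1 in siSTAT3 cells (0.43%), 1 at 24 h in siSCM cells (6.11%) and 1 in siSTAT3 cells (1.21%). The same limits gave none for the interaction at 4 h (0.384%) and 1 at 24 h (2.88%), and 1, 1, 0 and 2 for the siSTAT3 comparisons in the order above (1.48%, 3.51%, 1.25% and 7.15% of all genes). The TAM and siRNA comparisons share arrays with each other and with the interactions, so their calls are not independent. The study's methods call the replicates biological, while the labels do not say whether they were separate cultures, and the p-values measure the spread between these arrays.

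**Figure D1:**
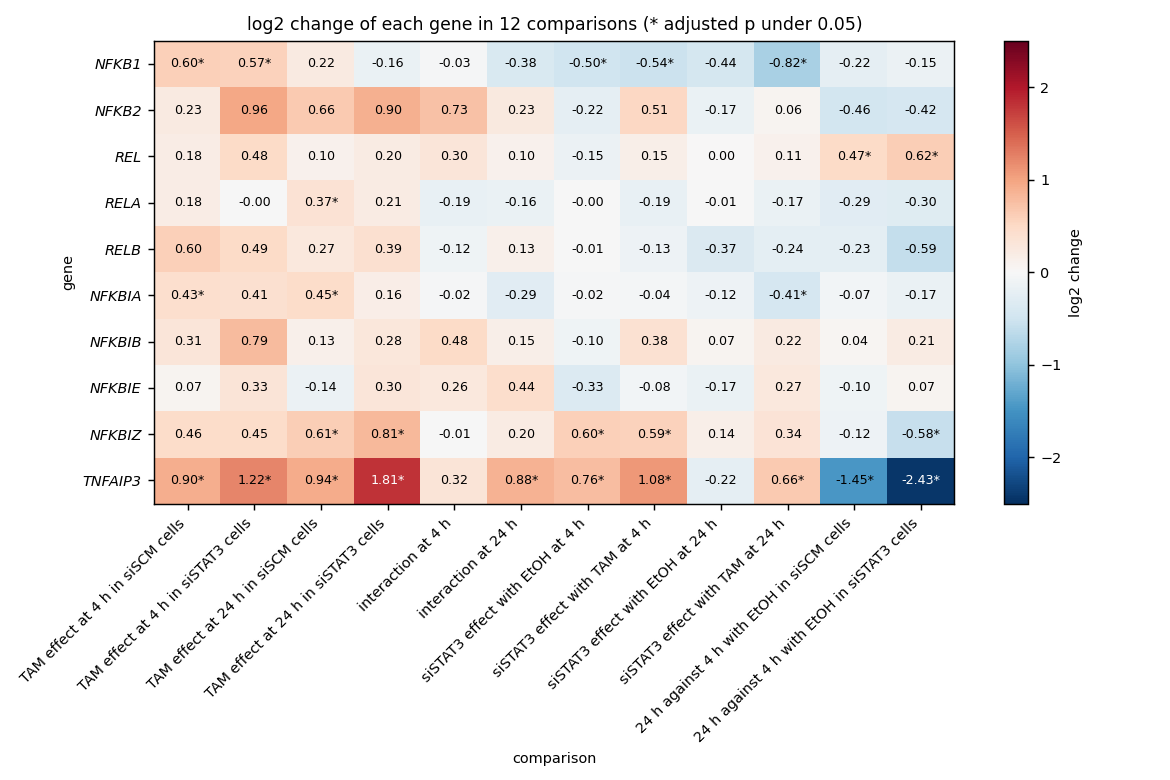
The log2 change of each of the 10 genes (rows) in 12 comparisons (columns), red for higher and blue for lower, with an asterisk where the adjusted p was under 0.05. The TNFAIP3 row holds the largest values, from -2.43 for 24 h against 4 h in siSTAT3 EtOH cells to 1.81 for TAM at 24 h in siSTAT3 cells, and the NFKB1 row is below 0 in all 4 siSTAT3 comparisons.

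Short stretches of promoter are shown for some of the 10 genes, because NF-κB is known to regulate several of its own genes through κB sites. RefSeq promoter windows (GRCh38.p14, 250 bases before to 50 after a listed start) were found for 8 of the 10 genes, in 14 windows. RELB and NFKBIE had no entry. The windows were searched on both strands for the κB consensus and for TTCNNNGAA, the core that STAT proteins recognise. The κB consensus was present in 9 of the 14 windows and in 7 of the 8 genes, RELA being the exception. It is present in 11.3% of all 35116 promoter windows of this length. Capitals mark the matched bases, and every stretch reads 5′ to 3′ on the strand of the gene.
NFKB1, chr4:102501300-102501329, plus strand: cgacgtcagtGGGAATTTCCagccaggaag
NFKBIA, chr14:35404811-35404840, minus strand: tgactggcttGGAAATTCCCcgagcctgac
NFKBIZ, chr3:101827757-101827786, plus strand: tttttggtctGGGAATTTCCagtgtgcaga
TNFAIP3, chr6:137867182-137867211, plus strand: acgtgactttGGAAAGTCCCgtggaaatcc
TNFAIP3, chr6:137867194-137867223, plus strand: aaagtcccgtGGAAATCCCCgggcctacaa
REL, chr2:60881517-60881546, plus strand: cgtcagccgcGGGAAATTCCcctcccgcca
The same 10 letters were matched for NFKB1 and NFKBIZ, and for NFKBIA on the other strand. They are also among the matches of NFKBIB, which are not printed here. The matches of NFKB2 and of a further NFKBIZ window are not printed either. Counted from the listed start, the match begins at -49 in NFKB1 and at -223 in NFKBIZ. In TNFAIP3 the matches begin at -67 and -55, close enough that the printed stretches overlap. The start listed for TNFAIP3 lies inside the gene coordinates given below, and so do both matches. REL has a further match on the other strand, shifted by 1 base and overlapping the first.
TTCNNNGAA was present in 1 of the 14 windows, against 7.66% of all windows, and that window belongs to RELA.
RELA, chr11:65663945-65663973, minus strand: ttaagacgaaTTCAGAGAAaataaaaaag
These matches describe letters in short windows. Binding at them was not analysed here.

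TNFAIP3 encodes A20, a ubiquitin-editing enzyme that shuts down signalling between cytokine receptors and IKK and is itself induced by NF-κB (chromosome 6, 137866349 to 137883312 in GRCh38.p14). At 4 h the siSCM EtOH arrays read 2164, 2263 and 2373 units and the siSCM TAM arrays 3572, 4618 and 4604 units. In siSTAT3 cells at 4 h the EtOH arrays read 3671, 3723 and 4155 units and the TAM arrays 8676, 9147 and 9110.1 units. The siSTAT3 TAM 4 h arrays were the highest of all 23, the siSCM EtOH 4 h arrays the lowest of the 4 h arrays, and siSCM TAM overlapped siSTAT3 EtOH. TAM raised TNFAIP3 at 4 h by 0.90 ± 0.10 (SE) log2 in siSCM cells, a 1.87-fold rise (limma adjusted p = 3.45e-05), and by 1.22 ± 0.10 or 2.34-fold in siSTAT3 cells (limma adjusted p = 2.07e-05). The interaction at 4 h was 0.32, with a 95% interval from 0.02 to 0.62 and a limma adjusted p of 0.598.

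By 24 h TNFAIP3 had dropped in all 4 conditions, and at 24 h its response to TAM differed between the siRNAs. Whether that difference changed between 4 and 24 h was not tested. At 24 h the siSCM EtOH arrays read 901, 764 and 830.0 units and the siSCM TAM arrays 1641, 1591 and 1531 units. The siSTAT3 EtOH arrays read 719, 664 and 757 units, and both siSTAT3 TAM arrays lay at 2537 and 2473 units. TAM and EtOH arrays did not overlap in either kind of cell, and the siSTAT3 cells had both the lowest group and the highest group of this time. TAM raised TNFAIP3 by 0.94 ± 0.10 (1.91-fold) in siSCM cells and by 1.81 ± 0.11 (3.52-fold) in siSTAT3 cells. The interaction was 0.88 ± 0.15 with a 95% interval from 0.56 to 1.19 (limma adjusted p = 0.00164). It passed with each of the 11 arrays left out in turn, at a highest adjusted p of 0.0106. The second TNFAIP3 probe set gave an interaction of 0.80 ± 0.23, which missed the threshold (limma adjusted p = 0.0684). Both siSTAT3 TAM 24 h arrays also had the low ACTB ratio given above, and CDH1 and DCN had interactions of 1.45 ± 0.13 and -0.66 ± 0.14 in the same comparison. Their part in this value was not tested.

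STAT3 depletion alone raised TNFAIP3 at 4 h, by 0.76 ± 0.10 with EtOH and 1.08 ± 0.10 with TAM, and by 0.66 ± 0.11 with TAM at 24 h. The limma adjusted p were 0.000229, 1.79e-06 and 0.000513. With EtOH at 24 h the difference was -0.22 ± 0.10 and did not pass (limma adjusted p = 0.403), although the siSTAT3 arrays (664 to 757 units) lay below all siSCM arrays (764 to 901 units).

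The fall of TNFAIP3 between 4 and 24 h was the largest change of any of the 10 genes. With EtOH it was -1.45 ± 0.10 in siSCM cells, or 2.73-fold lower, and -2.43 ± 0.10 in siSTAT3 cells, or 5.40-fold lower (limma adjusted p = 1.38e-07 and 5.16e-10). In these time comparisons 2 of 10 genes passed in siSCM cells, against 12.3% of all genes, and 3 of 10 in siSTAT3 cells, against 13.4%. By the methods' limits 1 and 2 passed (3.87% and 4.58% of all genes), and arrays of the 2 times did not overlap for 5 genes in each (32.3% and 33% of all genes). The difference between both falls was -0.98 ± 0.14 (limma adjusted p = 0.0371), and only 3 of 19775 genes, 0.0152%, passed this interaction of siRNA and time. The comparison was added after the first results had been seen, and its call is fragile: it was lost with 11 of the 12 arrays left out in turn, while the value stayed between -1.04 and -0.92 and the highest adjusted p was 0.143. With TAM the fall was -1.42 ± 0.10 in siSCM cells and -1.84 ± 0.11 in siSTAT3 cells. Ordered by mean level, the 8 groups of TNFAIP3 ran from siSTAT3 TAM 4 h (8978 ± 262 units, SD, n = 3) to siSTAT3 EtOH 24 h (713 ± 46.6 units, SD, n = 3). Among neighbours in that order, only siSCM TAM 4 h (4265 ± 600 units) and siSTAT3 EtOH 4 h (3849 ± 266 units) had overlapping arrays.

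**Figure D2:**
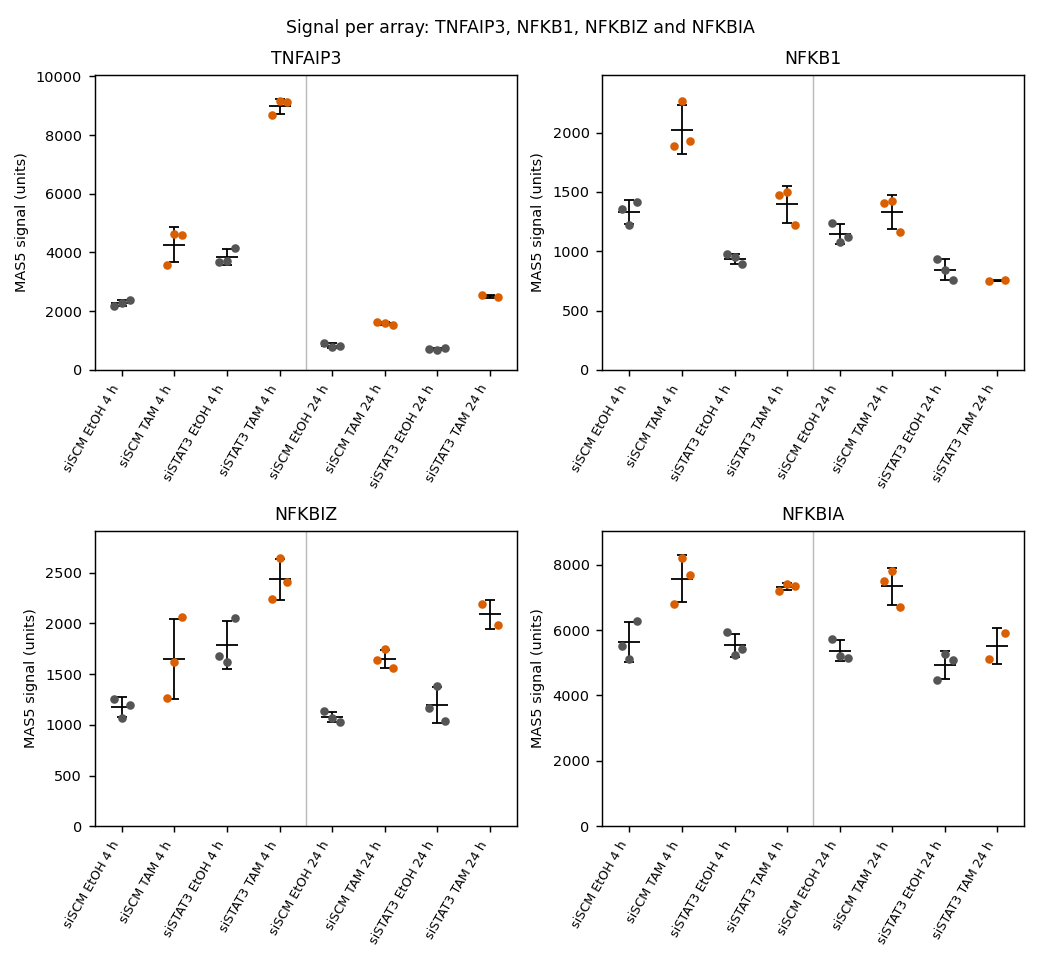
MAS5 signal in units (linear axis from 0) of TNFAIP3, NFKB1, NFKBIZ and NFKBIA on each array (points, orange for TAM and grey for EtOH), with the group mean and SD, for the 4 groups at 4 h (left of the line) and the 4 at 24 h. TNFAIP3 is highest in siSTAT3 TAM 4 h (8676 to 9147 units), whereas NFKB1 is highest in siSCM TAM 4 h (1885 to 2263 units) and lowest in siSTAT3 TAM 24 h (749 and 755 units).

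NFKB1 encodes p105, the precursor of the p50 subunit (chromosome 4, 102501359 to 102617302), and it has a single probe set. At 4 h the siSCM EtOH arrays read 1355, 1223 and 1415 units and the siSCM TAM arrays 1885, 2263 and 1925 units. The siSTAT3 EtOH arrays read 974, 948 and 892 units and the siSTAT3 TAM arrays 1472, 1503 and 1218 units. All siSTAT3 EtOH arrays lay below all siSCM EtOH arrays, and the siSTAT3 TAM arrays reached the level of siSCM cells without TAM. TAM raised NFKB1 by 0.60 ± 0.11 in siSCM cells (1.52-fold, limma adjusted p = 0.00627) and by 0.57 ± 0.11 in siSTAT3 cells (1.48-fold, limma adjusted p = 0.0295). The interaction at 4 h was -0.03 with a 95% interval from -0.37 to 0.31, so the size of the early rise could not be told apart between the siRNAs within that interval. The call in siSTAT3 cells was lost with 5 of the 6 arrays left out in turn, at values from 0.51 to 0.67 and a highest adjusted p of 0.144.

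At 24 h NFKB1 read 1240.4, 1074 and 1117 units on the siSCM EtOH arrays and 1405, 1421 and 1166 units on the siSCM TAM arrays. The siSTAT3 EtOH arrays read 935, 841 and 759 units, and the siSTAT3 TAM arrays 749 and 755 units. TAM and EtOH arrays overlapped in siSCM cells, while in siSTAT3 cells both TAM arrays lay just below the lowest EtOH array. The TAM changes, 0.22 ± 0.11 and -0.16 ± 0.13, did not pass in either kind of cell. The interaction was -0.38 with a 95% interval from -0.74 to -0.02 and did not pass after adjustment (limma adjusted p = 0.319).

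STAT3 depletion lowered NFKB1 by 0.50 ± 0.11 log2 with EtOH at 4 h and by 0.54 ± 0.11 with TAM at 4 h, and by 0.82 ± 0.13 with TAM at 24 h. These are falls of 1.42-fold, 1.45-fold and 1.76-fold, with limma adjusted p of 0.0201, 0.00667 and 0.000232. With EtOH at 24 h the difference was -0.44 ± 0.11, and it narrowly missed the threshold (limma adjusted p = 0.0623). siSTAT3 and siSCM arrays did not overlap in any of the 4 comparisons. The EtOH call at 4 h was lost with 4 of the 6 arrays left out in turn, at values from -0.56 to -0.46 and a highest adjusted p of 0.0889. In the order of group means siSCM TAM 4 h stood apart at the top (2024 ± 207 units, SD, n = 3). siSTAT3 TAM 4 h, siSCM TAM 24 h, siSCM EtOH 4 h and siSCM EtOH 24 h followed with overlapping neighbours, and siSTAT3 TAM 24 h was lowest (752 ± 3.72 units, SD, n = 2). Between 4 and 24 h with TAM, NFKB1 fell by 0.61 ± 0.11 in siSCM cells and by 0.89 ± 0.13 in siSTAT3 cells (limma adjusted p = 0.00102 and 0.000188). With EtOH the change over time was -0.22 ± 0.11 and -0.15 ± 0.11, neither of which passed.

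The remaining subunits changed less. RELA encodes p65, the subunit that carries a strong activation domain in the common p50 and p65 dimer (chromosome 11, 65653601 to 65663857). At 24 h its siSCM EtOH arrays read 1016, 929 and 886 units and its siSCM TAM arrays 1201, 1233 and 1217 units. The TAM arrays were all higher, and TAM raised RELA by 0.37 ± 0.09 (1.29-fold, limma adjusted p = 0.0160), a call that was lost with 3 of the 6 arrays left out (highest adjusted p 0.0704). On the second RELA probe set the same arrays overlapped, at 111 to 168 units with EtOH and 134 to 166 units with TAM. In siSTAT3 cells at 24 h the main probe set read 934, 994 and 877 units on the EtOH arrays and 1102 and 1061 units on the TAM arrays. The difference of 0.21 ± 0.11 did not pass there, and the interaction of -0.16 had a 95% interval from -0.46 to 0.14. At 4 h RELA read 1082 to 1234 units in siSCM EtOH, 1127 to 1434 in siSCM TAM, 1076 to 1238 in siSTAT3 EtOH and 1094 to 1182 in siSTAT3 TAM, and all 4 groups overlapped. The siSTAT3 difference of RELA was -0.19 to 0.00 log2 over the 4 comparisons, and none passed.

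REL, which encodes c-Rel (chromosome 2, 60881574 to 60931612), rose with time. It read 598, 555 and 616 units in siSCM EtOH at 4 h and 840.4, 801 and 808 units in siSCM EtOH at 24 h. In siSTAT3 EtOH it read 489, 502 and 611 units at 4 h and 788, 807 and 860.1 units at 24 h. Every 24 h array was higher than every 4 h array with EtOH. REL rose over time by 0.47 ± 0.11 in siSCM cells (1.39-fold, limma adjusted p = 0.0149) and by 0.62 ± 0.11 in siSTAT3 cells (1.54-fold, limma adjusted p = 0.00166), and the call in siSCM cells was lost with 2 of the 6 arrays left out (highest adjusted p 0.0671). REL has 5 probe sets, and a further one also rose in both, by 0.53 ± 0.10 and 0.57 ± 0.10. The remaining ones had higher means at 24 h than at 4 h by uneven amounts. In siSCM EtOH cells they went from 236 to 315, from 252 to 327 and from 55.7 to 62.6 units. In siSTAT3 EtOH cells they went from 219 to 339, from 232 to 293 and from 36.1 to 56.2 units (n = 3 each). No comparison of TAM with EtOH, or of siSTAT3 with siSCM, passed for the main probe set of REL. With TAM at 4 h it read 671, 582 and 763 units in siSCM cells and 636, 817 and 786 units in siSTAT3 cells. The change from EtOH was 0.18 ± 0.11 and 0.48 ± 0.11 (limma adjusted p = 0.594 and 0.0803). Between 4 and 24 h with TAM, REL rose in siSCM cells by 0.39 ± 0.11 (limma adjusted p = 0.0269). That call was lost with 5 of the 6 arrays left out (highest adjusted p 0.138). In siSTAT3 cells the difference was 0.34 ± 0.13 and did not pass (limma adjusted p = 0.110).

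RELB and NFKB2 encode RelB and p100, the precursor of p52, which pair in the slower non-canonical branch of the pathway (chromosome 19, 45001464 to 45038192, and chromosome 10, 102394110 to 102402529). At 4 h RELB read 225, 271 and 230.1 units in siSCM EtOH, 294, 444 and 377 units in siSCM TAM, 239, 235 and 243 units in siSTAT3 EtOH and 301, 371 and 336 units in siSTAT3 TAM. TAM arrays lay above EtOH arrays in both kinds of cells. The TAM differences of 0.60 ± 0.18 and 0.49 ± 0.18 did not pass (limma adjusted p = 0.117 and 0.387). At 24 h RELB read 192 to 214 units in siSCM EtOH, 221 to 273 in siSCM TAM, 111 to 191 in siSTAT3 EtOH and 193 and 225 in siSTAT3 TAM, and no difference passed. RELB fell between 4 and 24 h with TAM by 0.57 ± 0.18 in siSCM cells and by 0.68 ± 0.21 in siSTAT3 cells (limma adjusted p = 0.0423 and 0.0417), calls that were lost with 5 of the 6 and with all 5 arrays left out in turn (highest adjusted p 0.186 and 0.235). With TAM over time, 4 of 10 genes passed in siSCM cells (21.1% of all genes) and 4 of 10 in siSTAT3 cells (14.2% of all genes), and 2 in each by the methods' limits (8.65% and 5.21% of all genes). The difference between the TAM and EtOH time courses passed in limma for none of the 10 genes in siSCM cells (5.59% of all genes) or siSTAT3 cells (0.536%), and 1 and 2 genes had an unadjusted p under 0.05.

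NFKB2 read 150.3, 165 and 137 units in siSCM EtOH and 137, 213 and 185 units in siSCM TAM at 4 h. In siSTAT3 cells at 4 h it read 155, 124 and 111 units with EtOH and 199, 311 and 254 units with TAM. The TAM arrays overlapped the EtOH arrays in siSCM cells and lay above them in siSTAT3 cells. The change of 0.96 ± 0.21 in siSTAT3 cells sat at the threshold (1.94-fold, limma adjusted p = 0.0501), and it was 0.23 ± 0.21 in siSCM cells. The interaction of 0.73 had a 95% interval from 0.11 to 1.36 and did not pass (limma adjusted p = 0.543). At 24 h NFKB2 read 100.3, 115 and 112 units in siSCM EtOH, 207, 168 and 147 units in siSCM TAM, 76.7, 123 and 95.4 units in siSTAT3 EtOH and 199.7 and 162 units in siSTAT3 TAM. TAM arrays were higher than EtOH arrays in both, by 0.66 ± 0.21 and 0.90 ± 0.23, again just short of the threshold (limma adjusted p = 0.0506 and 0.0658). Its other probe sets read at most 108 units and none of their comparisons passed. At 4 h in siSTAT3 cells the brighter of them averaged 73.9 ± 24.0 units with EtOH and 81.6 ± 15.9 with TAM (SD, n = 3). The dimmer averaged 30.3 ± 3.95 and 27.7 ± 13.8 units there. At 24 h with EtOH and TAM, the brighter averaged 60.9 and 96.0 units in siSCM cells and 48.0 and 69.9 in siSTAT3 cells. The dimmer averaged 22.2 and 34.1 units in siSCM cells and 32.5 and 24.1 in siSTAT3 cells.

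Of the classical inhibitors, NFKBIA alone had comparisons that passed on its main probe set. NFKBIA encodes IκBα, the inhibitor that is destroyed and rapidly remade as the pathway fires (chromosome 14, 35401513 to 35404749). At 4 h its siSCM EtOH arrays read 5499, 5103 and 6289 units and its siSCM TAM arrays 6799, 8213 and 7688 units. The siSTAT3 EtOH arrays read 5926, 5249 and 5417 units and the siSTAT3 TAM arrays 7200.2, 7417 and 7345 units. TAM arrays were above EtOH arrays in both, by similar amounts: 0.43 ± 0.10 in siSCM cells passed (limma adjusted p = 0.0356) and 0.41 ± 0.10 in siSTAT3 cells did not (limma adjusted p = 0.110). The interaction was -0.02, with a 95% interval from -0.33 to 0.29. The call in siSCM cells was lost with 4 of the 6 arrays left out (highest adjusted p 0.175).

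At 24 h NFKBIA read 5730.5, 5211 and 5142 units in siSCM EtOH, 7508, 7792 and 6712 units in siSCM TAM, 4464, 5258 and 5071 units in siSTAT3 EtOH and 5115 and 5899 units in siSTAT3 TAM. The siSCM TAM arrays stood above all others at 24 h, while TAM and EtOH overlapped in siSTAT3 cells. TAM raised NFKBIA by 0.45 ± 0.10 in siSCM cells (1.37-fold, limma adjusted p = 0.00721). The change in siSTAT3 cells was 0.16 ± 0.12, and the interaction of -0.29 (95% interval -0.62 to 0.04) did not pass (limma adjusted p = 0.423), so the effects were not shown to differ. With TAM at 24 h, siSTAT3 cells had 0.41 ± 0.12 less NFKBIA than siSCM cells on the log2 scale (1.33-fold lower, limma adjusted p = 0.0248), a call lost with 3 of the 5 arrays left out (highest adjusted p 0.227). Over time with TAM NFKBIA fell in siSTAT3 cells, by 0.41 ± 0.12 (limma adjusted p = 0.0280, lost with 4 of the 5 arrays left out, highest adjusted p 0.238), and differed by -0.04 ± 0.10 in siSCM cells.

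NFKBIB and NFKBIE encode IκBβ and IκBε (chromosome 19, 38899666 to 38908889, and chromosome 6, 44258166 to 44265551). Over the 23 arrays NFKBIB ranged from 113 to 270.1 units and NFKBIE from 141 to 248 units. No comparison passed for the main probe set of either. The largest NFKBIB value was 0.79 ± 0.21 with TAM at 4 h in siSTAT3 cells (limma adjusted p = 0.136), where the EtOH arrays read 156, 131 and 113 units and the TAM arrays 210.2, 270.1 and 213 units without overlap. The other NFKBIB probe sets averaged 142 ± 18.8 and 110 ± 7.34 units in siSTAT3 EtOH at 4 h (SD, n = 3). With TAM there they averaged 146 ± 12.2 and 93.8 ± 29.5 units. The second of these, with a maximum of 139 units, fell over time in siSCM EtOH cells by 0.69 ± 0.20 (limma adjusted p = 0.0362). The main probe set differed by 0.04 ± 0.21 in that comparison. For NFKBIE the largest value was the 24 h interaction of 0.44, with a 95% interval from -0.10 to 0.98.

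**Figure D3:**
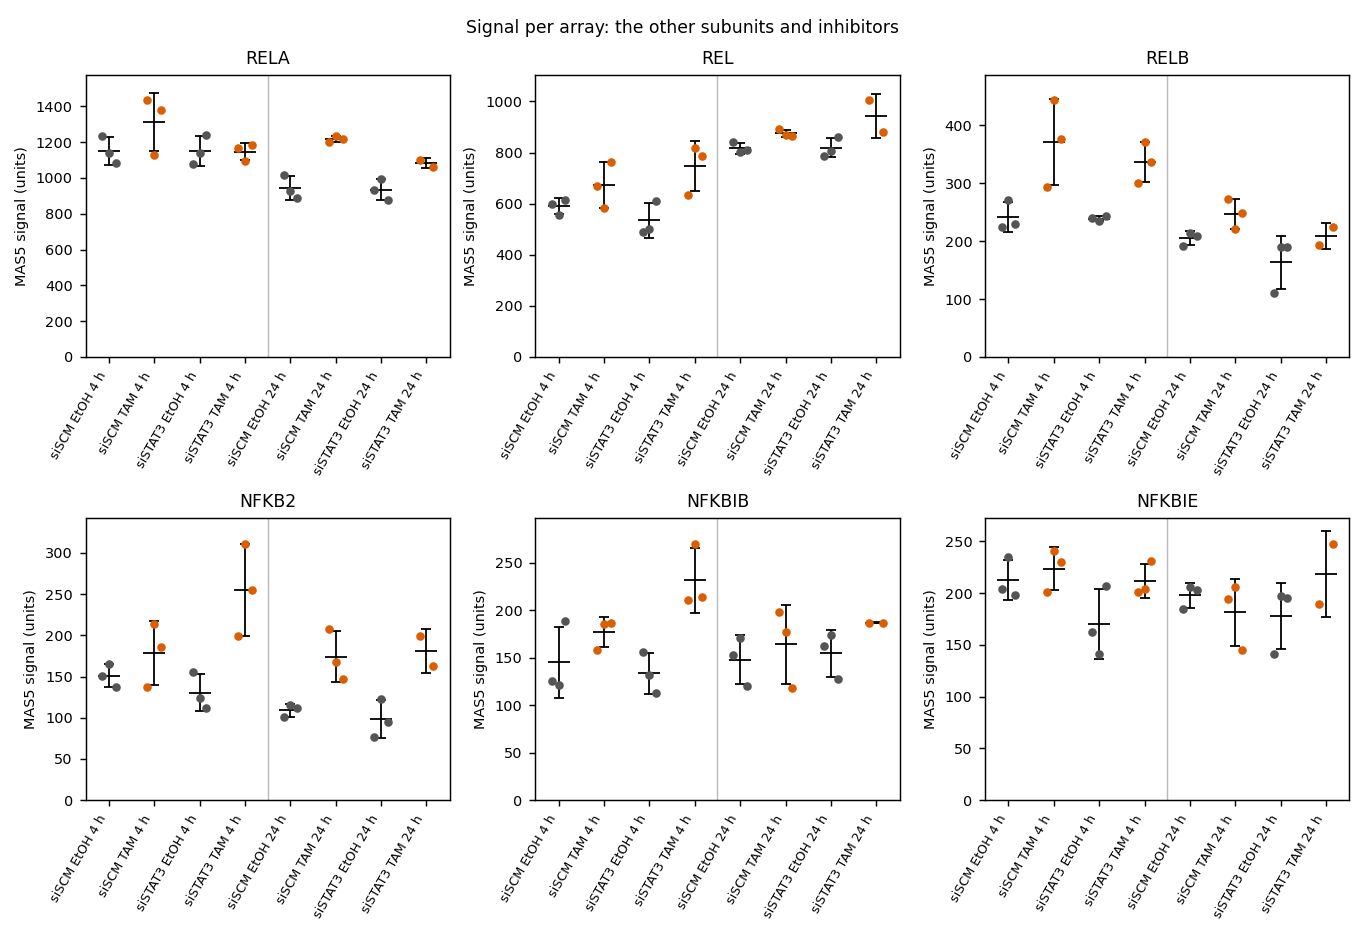
MAS5 signal in units (linear axes from 0) of RELA, REL, RELB, NFKB2, NFKBIB and NFKBIE on each array (points, orange for TAM and grey for EtOH) with group mean and SD, 4 h left of the line and 24 h right of it. REL spans 787.8 to 1005 units at 24 h and 489 to 817 units at 4 h, where the highest arrays are siSTAT3 TAM, and NFKBIE shows no separation of groups by treatment.

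NFKBIZ encodes IκBζ, an atypical nuclear IκB protein that binds p50 and helps to switch on a second set of NF-κB genes (chromosome 3, 101827990 to 101861022). At 4 h its main probe set read 1258, 1069 and 1198 units in siSCM EtOH and 1268, 1619 and 2062 units in siSCM TAM. It read 1683, 1623 and 2055 units in siSTAT3 EtOH and 2243, 2649 and 2409 units in siSTAT3 TAM. STAT3-depleted cells were higher without overlap under both treatments, whereas the lowest siSCM TAM array nearly met the highest siSCM EtOH array. The siSTAT3 effect was 0.60 ± 0.15 with EtOH (1.52-fold, limma adjusted p = 0.0378) and 0.59 ± 0.15 with TAM (limma adjusted p = 0.0248). These calls were fragile, since the first was lost with any of the 6 arrays left out (highest adjusted p 0.163) and the second with 4 of 6 (highest adjusted p 0.133). The TAM effect at 4 h did not pass in siSCM cells (0.46 ± 0.15, limma adjusted p = 0.152) or in siSTAT3 cells (0.45 ± 0.15, limma adjusted p = 0.297).

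At 24 h NFKBIZ read 1135, 1069 and 1028 units in siSCM EtOH, 1639, 1744 and 1561 units in siSCM TAM, 1163, 1386 and 1041 units in siSTAT3 EtOH and 2191 and 1987 units in siSTAT3 TAM. TAM and EtOH arrays did not overlap in either kind of cell. TAM raised NFKBIZ by 0.61 ± 0.15 in siSCM cells (1.53-fold, limma adjusted p = 0.0121) and by 0.81 ± 0.17 in siSTAT3 cells (1.76-fold, limma adjusted p = 0.0177). The call in siSTAT3 cells was lost with 4 of the 5 arrays left out (highest adjusted p 0.118), and that in siSCM cells when replicate 2 of siSCM TAM 24 h was left out (adjusted p 0.0507). The interaction of 0.20 had a 95% interval from -0.28 to 0.68. With EtOH, NFKBIZ fell between 4 and 24 h in siSTAT3 cells by 0.58 ± 0.15 (limma adjusted p = 0.0197, lost with 3 of the 6 arrays left out) and differed by -0.12 ± 0.15 in siSCM cells. The second NFKBIZ probe set, with 200.3 to 698 units, differed in size. On it TAM at 4 h in siSCM cells passed (1.01 ± 0.16, limma adjusted p = 0.00132), TAM at 24 h gave 0.90 ± 0.16 in siSCM and 0.92 ± 0.18 in siSTAT3 cells, and the siSTAT3 effect with EtOH at 4 h was 1.15 ± 0.16 (limma adjusted p = 0.000431). With TAM at 4 h the siSTAT3 effect was 0.45 ± 0.16 on that probe set and did not pass.

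**Figure D4:**
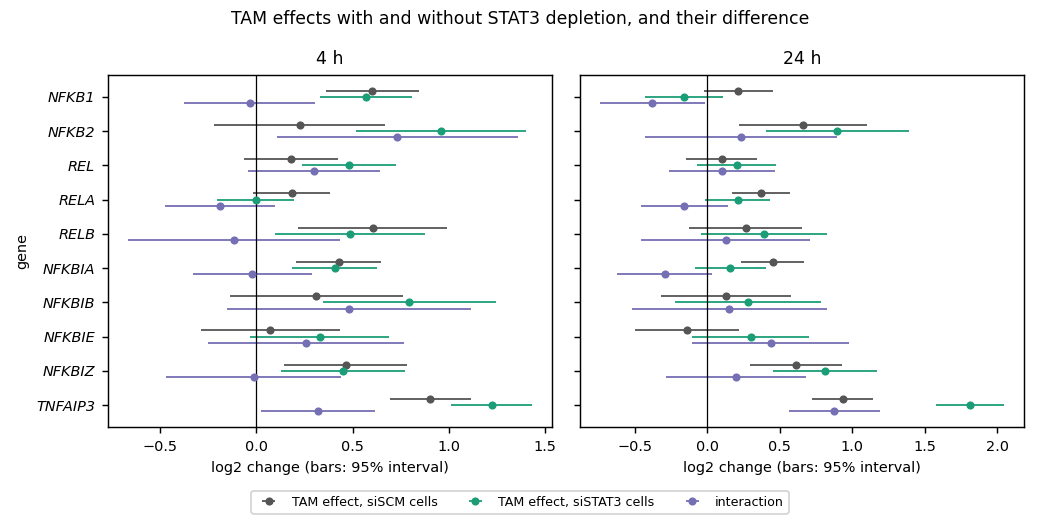
The TAM effect in siSCM cells (grey), the TAM effect in siSTAT3 cells (green) and their difference, the interaction (violet), as log2 changes with 95% intervals for the 10 genes at 4 h (left) and 24 h (right). The interaction of TNFAIP3 at 24 h lies at 0.88, with an interval from 0.56 to 1.19, and it is the only one of the 20 interactions with an adjusted p under 0.05.

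The other genes of the pathway were read from lists written from general knowledge of NF-κB signalling. For comparison, TAM called 3.26% of all genes at 4 h and 15.4% at 24 h in siSCM cells. In siSTAT3 cells it called 0.819% and 2.75%. The interaction called 0.521% at 4 h and 5.91% at 24 h, and siSTAT3 with EtOH at 4 h called 4.28%. Time with EtOH called 12.3% in siSCM and 13.4% in siSTAT3 cells. Among 13 receptors that signal to NF-κB, IL1R1, the signalling receptor of IL1, and its partner IL1RAP stood out. IL1R1 averaged 1017 ± 65.1 units in siSCM EtOH 4 h, 1493 ± 51.2 in siSCM TAM 4 h, 582 ± 36.4 in siSTAT3 EtOH 4 h and 556 ± 29.6 in siSTAT3 TAM 4 h (SD, n = 3 each). At 24 h it averaged 995 ± 92.8 units in siSCM EtOH and 2562 ± 92.7 in siSCM TAM, against 403 ± 18.3 in siSTAT3 EtOH and 488 ± 56.9 in siSTAT3 TAM (n = 2). The TAM rise in siSCM cells at 24 h was 1.37 ± 0.09 log2, and the interaction was -1.10 ± 0.13 (limma adjusted p = 7.41e-05). IL1RAP rose with TAM by 2.04 ± 0.11 at 24 h in siSCM cells and had an interaction of -1.86 ± 0.17 (limma adjusted p = 3.96e-06). TNFRSF1A, the main TNF receptor, was lower in siSTAT3 EtOH cells by 0.47 ± 0.08 at either time. EGFR, the receptor of epidermal growth factor, fell with TAM in siSCM cells by 0.44 ± 0.08 at 4 h and by 0.35 ± 0.08 at 24 h, with an interaction of 0.48 ± 0.12 at 24 h (limma adjusted p = 0.0328). TNFRSF12A, the TWEAK receptor, had an interaction of 0.63 ± 0.11 at 24 h (limma adjusted p = 0.00266). Over the list, 3 receptors rose and 1 fell with TAM at 24 h in siSCM cells, and with the interaction at 24 h 2 were higher and 2 lower.

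Of 14 measured adaptors and ubiquitin ligases, 4 rose and 3 fell with TAM at 24 h in siSCM cells. IRAK2, a kinase-like adaptor of IL1 and Toll-like receptors, rose by 1.22 ± 0.10, and TRAF4 by 0.72 ± 0.15. CARD10, a scaffold that links receptors to IKK, fell by 0.73 ± 0.09 and had an interaction of 0.88 ± 0.13. TRAF3, which holds the non-canonical branch in check, and IRAK1 had interactions of 0.48 ± 0.12 and 0.38 ± 0.09. At 4 h in siSCM cells TRAF4, BIRC2 and MYD88 rose, by 0.66 ± 0.15, 0.43 ± 0.09 and 0.58 ± 0.10, and no gene of this list fell.

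Among 11 measured IKK and upstream kinases, the genes of the IKK complex itself did not pass in any TAM comparison or interaction. MAP3K8 (Tpl2), a kinase held by the p105 protein that NFKB1 encodes, rose at 4 h by 1.16 ± 0.14 in siSCM cells, from 273 ± 15.7 to 621 ± 142 units (SD, n = 3). MAP3K14 (NIK), the kinase of the non-canonical branch, fell with TAM at 24 h in siSCM cells by 1.57 ± 0.21, from 133 ± 10.2 to 46.3 ± 14.1 units. In siSTAT3 cells it averaged 161 ± 19.3 and 169.6 ± 27.0 units, and the interaction was 1.64 ± 0.32 (limma adjusted p = 0.00487).

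Of 14 further inhibitors and atypical IκB genes, 3 rose and 1 fell with TAM at 24 h in siSCM cells. TNIP3 and TNIP2 encode partners of A20. TNIP3 rose by 2.54 ± 0.34 in siSCM cells, from 61.8 ± 5.72 to 359 ± 21.3 units (SD, n = 3), and averaged 52.8 ± 14.4 and 80.5 ± 28.9 units in siSTAT3 EtOH and TAM cells, with an interaction of -1.94 ± 0.51 (limma adjusted p = 0.0391). TNIP2 rose by 0.60 ± 0.11. CYLD, a deubiquitinase that opposes IKK activation, had an interaction of 0.83 ± 0.18 (limma adjusted p = 0.0105). TSC22D3, a glucocorticoid-induced gene whose product binds p65, fell with TAM in siSCM cells by 0.61 ± 0.13 at 4 h and by 0.93 ± 0.13 at 24 h. At 24 h the interaction was higher for TNFAIP3 and CYLD and lower for TNIP3.

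Of 28 measured NF-κB target genes, 8 rose and none fell with TAM at 4 h in siSCM cells, and 6 rose and none fell in siSTAT3 cells. At 24 h 10 rose and 2 fell in siSCM cells and 15 rose and none fell in siSTAT3 cells, where the median change of the list was 0.76 against -0.01 over all genes. In the interaction at 24 h, 7 targets were higher, none lower, and the list median was 0.45 against 0.03 over all genes. IL1B, the cytokine that signals through IL1R1, averaged 1666 ± 235 and 2091 ± 238 units in siSCM EtOH and TAM cells at 24 h (SD, n = 3), and 3154 ± 161 (n = 3) and 10500.3 ± 1708 units (n = 2) in siSTAT3 cells. Its interaction was 1.40 ± 0.18 (limma adjusted p = 0.000156), and that of PLAU, a secreted protease, was 0.95 ± 0.19. TNF had an interaction of 3.17 ± 0.58, but its signal was at most 43.6 units on any array. IL1A had the only interaction of the list that passed at 4 h, 0.59 ± 0.11.

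Further targets differed by time or by siRNA with EtOH. IL6 rose with TAM at 4 h in siSCM cells by 2.70 ± 0.27, from 400.0 ± 64.5 to 2672 ± 801 units (SD, n = 3), and STAT3 depletion lowered it with EtOH by 1.11 ± 0.27 at 4 h and 1.25 ± 0.27 at 24 h. PTGS2, the inducible cyclooxygenase, rose by 1.61 ± 0.18 with TAM at 4 h in siSCM cells, and STAT3 depletion raised it by 1.52 ± 0.18 with EtOH at 4 h. CCL2, a monocyte chemokine, went from 15.3 ± 5.45 to 2698 ± 299 units with TAM at 4 h in siSCM cells (limma adjusted p = 0.00165), where all EtOH arrays were at or below 18.7 units, so no fold is given, and it averaged 32.7 ± 19.1 units in siSTAT3 TAM 4 h. CXCL3 and CCL20 rose at 24 h in siSCM cells by 2.48 ± 0.25 and 1.97 ± 0.14, and BCL2A1 rose from a low signal, 14.9 to 27.6 units, to 75.0 to 96.1 units. TNFSF10 was lower by 1.16 ± 0.18 in siSTAT3 EtOH cells at 4 h, and SOD2 lower by 0.88 ± 0.18 at 24 h. Between 4 and 24 h with EtOH, 15 of the 28 targets fell and 2 rose in siSCM cells, and 16 fell and 1 rose in siSTAT3 cells.

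**Figure D5:**
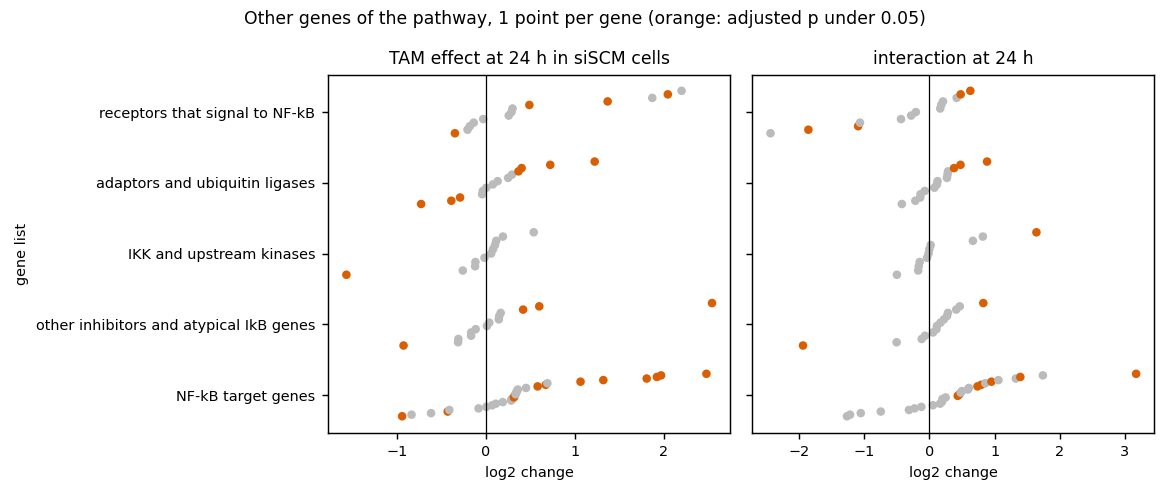
The log2 change of each gene in 5 lists of other pathway genes (1 point per gene, orange where the adjusted p was under 0.05) for TAM at 24 h in siSCM cells (left) and for the interaction at 24 h (right). Of the 28 NF-κB target genes, 10 rose and 2 fell on the left, and 7 were higher and none lower on the right, whereas IL1RAP, IL1R1 and TNIP3 lie below 0 on the right at -1.86, -1.10 and -1.94.

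Of 9 measured genes known to depend on IκBζ in epithelium, 3 rose with TAM at 24 h in siSCM cells, CSF3 by 2.21 ± 0.19, CCL20 by 1.97 ± 0.14 and S100A9 by 0.40 ± 0.11. S100A8 and S100A9, which encode the subunits of calprotectin, were lower in siSTAT3 EtOH cells by 1.23 ± 0.15 and 1.48 ± 0.11 at 4 h. At 24 h they were lower there by 0.98 ± 0.15 and 1.51 ± 0.11. NFKBIZ itself was higher in siSTAT3 EtOH cells at 4 h, and its difference at 24 h did not pass. With EtOH at 4 h 3 genes of the list fell in siSTAT3 cells (IL6, S100A8 and S100A9) and 1 rose, IL36G, by 1.68 ± 0.31 (51.0 ± 20.8 against 156 ± 18.6 units, SD, n = 3). At 24 h the interaction was 1.97 ± 0.47 for IL36G and -1.09 ± 0.29 for CSF3.

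The genes whose 8 group means, each centred on the gene's own mean, lay closest to those of a member were sought among 12757 genes with a mean log2 signal of at least log2 of 50 units. For TNFAIP3, whose group means span 3.66 log2 units, they were PTGS2, ETS1 and F3, at root mean square distances of 0.36, 0.40 and 0.46. For NFKB1 (span 1.42) they were CA13, PDE4D and SLC20A2 at 0.12, 0.15 and 0.16. For NFKBIZ (span 1.17) they were CYTH2, IER3 and SOCS2 at 0.09, 0.13 and 0.15. For NFKBIA (span 0.62) they were DCP1A, CCNL1 and ATF4 at 0.07, 0.08 and 0.09, and for RELA (span 0.48) TMEM87A, CLIC4 and ERAP1 at 0.05, 0.05 and 0.06.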

How the data were processed

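Gene expression was measured on Affymetrix U133 Plus 2.0 arrays, and the deposited values are the authors' MAS5 signal intensity per probe set on a linear scale, 54675 probe sets on 23 arrays. The target of the array scaling is not given in the sources used here. The values were taken as log2 with no further scaling. limma 3.58.1 (R 4.3.3) fitted 1 mean per group over all 23 arrays, and p-values were Benjamini-Hochberg adjusted over all 54675 probe sets, with a threshold of 0.05. Of these, 41097 probe sets carry 1 gene symbol, 1801 several and 11777 none. A gene was read from its single-gene probe set of highest mean log2 signal, giving 19775 genes. The fit was tested on simulated data. Precision is limited by the number of arrays.

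The 10 members and the lists of kinases, adaptors, receptors, inhibitors, targets, IκBζ-dependent genes and cell type markers were chosen with earlier results of these data known. All members were named, and from each list the 3 called genes of largest absolute change in the TAM comparisons in siSCM cells, the interactions and the siSTAT3 comparisons with EtOH, though not every such comparison is given for a gene named. Any further gene was chosen after its values were seen. Alternatives were another scaling, an added 50 units, a filter on low signals, limma's trend and robust options, a replicate block, a fit on the compared arrays alone, the median over probe sets, the limits in the study's methods, and each array left out in turn.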

Additional observations from a re-analysis of the deposited data

Results flagged for a closer look

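The TAM response of TNFAIP3 differed between the siRNAs at 24 h: the interaction was 0.88 log2 (SE 0.15, limma adjusted p = 0.00164), and both siSTAT3 TAM arrays (2537 and 2473 units) lay above the siSCM TAM arrays (1531 to 1641 units). On the second TNFAIP3 probe set the interaction was 0.80 log2 and missed the threshold (limma adjusted p = 0.0684). The fall of TNFAIP3 between 4 and 24 h with EtOH also differed between the siRNAs, by -0.98 log2 (SE 0.14, limma adjusted p = 0.0371). This call was lost with 11 of the 12 arrays left out in turn (highest adjusted p 0.143) and with the replicate block (limma adjusted p 0.0659).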

How the results depend on the processing

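No called change of the 10 genes reversed direction in any alternative run. Directions were not followed for changes that were not called, or for genes of the other lists. The TNFAIP3 interaction at 24 h was called, and no gene of the 10 was called for the interaction at 4 h, under all alternatives. Counts below are of the 10 genes called. Fitting only the arrays of a comparison left fewer samples to estimate the spread. The share of all genes called by that fit is in brackets. For TAM at 4 h it gave 0 in siSCM cells (0.238%) and 0 in siSTAT3 cells (0%). For TAM at 24 h it gave 2 in siSCM cells (5.59%) and 0 in siSTAT3 cells (0%). The siSTAT3 comparisons gave 0 with EtOH at 4 h (0.121%), 1 with TAM at 4 h (1.28%) and 0 with TAM at 24 h (3.25%). Time with EtOH gave 1 in siSCM cells (0.794%) and 1 in siSTAT3 cells (3.78%). Time with TAM gave 1 in siSCM cells (9.22%) and 0 in siSTAT3 cells (0%), and siRNA and time gave 0 (0%). The limits in the study's methods gave 1 for TAM at 4 h in siSTAT3 cells, TAM at 24 h in both, siSTAT3 at 4 h with EtOH and with TAM, and time with EtOH in siSCM cells, and 2 for time with TAM in both. For time with EtOH in siSTAT3 cells, quantile normalization, centring on array medians, 50 added units, the low-signal filter and the trend with robust prior each gave 5. TAM at 4 h in siSTAT3 cells gave 1 after centring and 5 with the filter or the trend. siSTAT3 with EtOH at 24 h gave 1, NFKB1, with 50 added units, the filter, the trend, the replicate block or the median over probe sets. That median gave 2 for TAM at 24 h in siSCM cells. TAM and time in siSTAT3 cells gave 1 with the filter and 2 with the trend. Shares of all genes by the methods' limits are given above. For the remaining settings, and with arrays left out, such shares were not computed. The cause of these shifts was not tested.

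With each array left out in turn, the count ran from 2 to 4 for TAM at 4 h in siSCM cells, 1 to 3 in siSTAT3 cells, 2 to 5 at 24 h in siSCM cells and 1 to 3 in siSTAT3 cells. It ran from 1 to 2 for siSTAT3 with EtOH at 4 h, 2 to 3 with TAM at either time, 1 to 2 for time with EtOH in siSCM cells, 2 to 4 in siSTAT3 cells, 2 to 3 for time with TAM in both, and 0 to 1 for siRNA and time.

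Replicate numbers showed at most weak pairing of the arrays. Of 77 same-number pairs 6 correlated above 0.1 (median r 0.02, over 31411 probe sets). Of 154 other-number pairs 5 did (median r -0.01). With the replicate block, siRNA and time gave 0 (TNFAIP3 adjusted p 0.0659), NFKBIA missed for TAM at 4 h in siSCM cells (0.0602) and NFKBIZ for siSTAT3 with EtOH at 4 h (0.0541). Comparisons over time with TAM, and those of time with siRNA or TAM, and their alternatives were chosen after seeing the data.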
